A study of Homo sapiens with 17 samples.

Results

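The genes described here are those whose KEGG pathway entry in the authors' deposited table holds the name Lysosome, without the genes whose symbols start with ABC or ATP6V. They number 117 of the 16884 genes in the table, and 110 of them had enough counts to be tested. The 7 that were not tested (ACP5, AP1M2, CTSW, DNASE2B, FUCA2, PSAPL1 and SLC11A1) reached no more than 0.23 FPKM (fragments scaled by transcript length and library depth) in any library. Another 10 genes of the same pathway entry, mostly subunits of the vacuolar proton pump, were set beside them.

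The RNA came from wild-type BEAS-2B, a human cell line grown from bronchial epithelium and immortalised, which was exposed to acetaldehyde in growth medium for 24 h. Acetaldehyde is a reactive aldehyde that cells make from ethanol and that tobacco smoke carries. There were 6 libraries without acetaldehyde (0 mM, control), 6 libraries at 10 mM and 5 libraries at 16 mM, all from the same line. Whether the libraries of a dose are separate cultures is not stated in the labels, and the p-values therefore reflect spread between samples that may be technical.

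Lysosomes are acidic vesicles in which hydrolases break down proteins, sugars, lipids and nucleic acids brought in by endocytosis and autophagy. Most of the hydrolases are tagged with mannose 6-phosphate in the Golgi, carried to endosomes by sorting receptors in clathrin-coated vesicles, and activated by the low pH that a proton pump maintains. Inherited loss of single hydrolases or membrane proteins causes lysosomal storage diseases, and in airway epithelium the same organelle clears damaged proteins and engulfed particles.

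Total estimated counts were between 15952673 and 18809242 per library. One 10 mM library, number 1, stood apart. Its TMM factor (edgeR's scaling for library composition) was 0.559, against at least 0.967 in every other library. Counts of library pairs within a group differed by 337 to 417 times the Poisson sampling variance where this library was one of the pair, and by at most 22.2 times otherwise. The remaining libraries fell into close sets. Controls 1 to 3, 10 mM libraries 2 to 4 and 16 mM libraries 1 to 3 lay within 1.43 to 5.39 times the sampling variance of their own set, as did controls 4 to 6, 10 mM libraries 5 and 6, and 16 mM libraries 4 and 5, and pairs from different sets lay 8.55 to 22.2 times it apart. No label names a batch, and no pair agreed within sampling noise. Of 7 epithelial markers, KRT7, KRT8 and KRT18 were expressed, with at least 180.83 FPKM in every library, while KRT5, KRT19, EPCAM and CDH1 stayed at or below 0.12 FPKM. Fibroblast markers summed to 4.41 to 9.64 FPKM at 16 mM, at most 16.1 FPKM at 10 mM and 12.7 to 22.7 FPKM in control. Of these, COL1A1 and PDGFRB alone reached 1 FPKM. PDGFRB averaged 3.50 FPKM at 16 mM and 12.7 FPKM in control, while COL1A1 averaged 3.48 FPKM at 16 mM and 3.62 FPKM in control. The part of fibroblast markers in the results below was not tested.

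In the library that stood apart, levels of the lysosome genes moved with transcript length. Its FPKM, divided by the mean of the other 10 mM libraries, had a Spearman correlation of -0.635 with the length implied by counts and FPKM over 106 lysosome genes, a description over genes of 1 library, and of -0.659 over 11339 genes of the whole table. The short transcript of NPC2, a soluble cholesterol carrier, had 1520 FPKM in library 1 and 351 to 438 FPKM in 10 mM libraries 2 to 6. IGF2R, the long transcript of the cation-independent mannose 6-phosphate receptor, had 4.38 FPKM in library 1 and 32.4 to 34.9 FPKM in the others. Values of library 1 are therefore given apart, and counts of changed genes are given with and without it. These choices were made with its values known. FPKM carries no TMM scaling, so library 1 can lie below other libraries in FPKM and not in the fit.

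**Figure D1:**
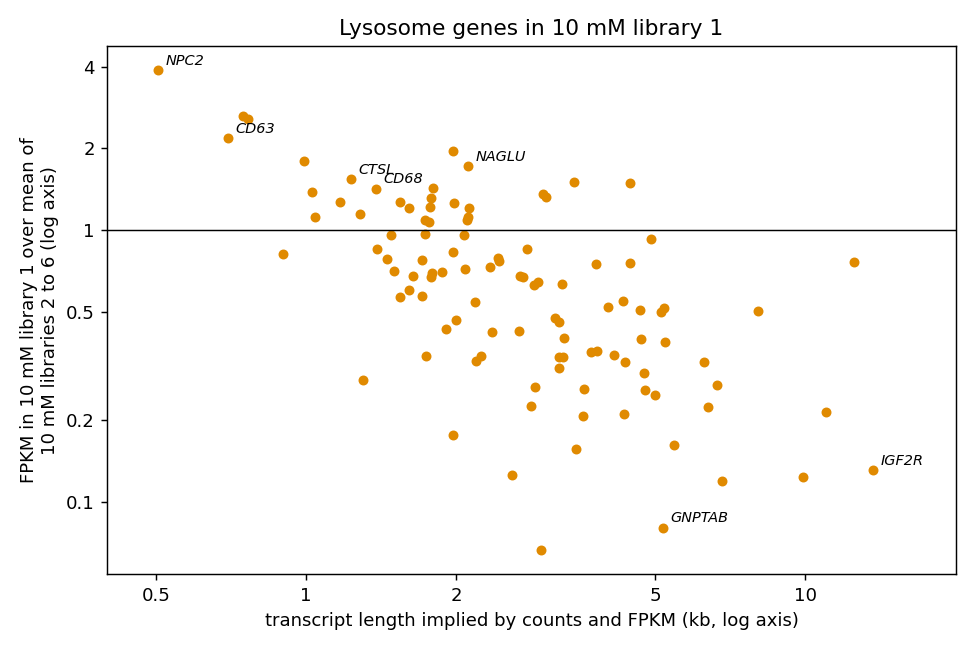
FPKM of lysosome genes in 10 mM library 1 divided by the mean of 10 mM libraries 2 to 6 (vertical, log axis) against the transcript length in kb implied by counts and FPKM (horizontal, log axis). Each of the 106 points is a gene with at least 1 FPKM in libraries 2 to 6. Over the 35 shortest of these genes the median ratio was 1.08 and over the 35 longest 0.347.

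Lysosome genes moved in both directions at 16 mM, about as often as genes in general. Genes were tested with edgeR (quasi-likelihood, p adjusted by Benjamini and Hochberg's method over all tested genes), and calls are those with an adjusted p under 0.05. On this test 16 of the 110 were higher and 25 lower at 16 mM than in control. The called share was 37.3%, beside 35.3% of all 12564 tested genes. Without 10 mM library 1, 31 were higher and 38 lower (62.7%, beside 65.9%), and the 41 genes called with it were all called again in the same direction. By level, 23 lysosome genes had higher FPKM in every 16 mM library than in any control and 29 had lower FPKM, beside 46.1% of all tested genes without overlap in either direction. The median log2 change of the lysosome genes was -0.01, beside 0.00 for all tested genes. All 41 kept their sign when the comparison was made within either set of close libraries. The sets are parts of the same libraries. Where 16 mM and control libraries did not overlap, the sign was therefore largely fixed in advance. Among the 41, only HGSNAT, HYAL2, LAMP3, LAPTM5 and LIPA had overlapping FPKM. With the close libraries of each group summed to 1 sample and without 10 mM library 1, 28 lysosome genes were called, 27 of them among the 41, beside 3480 of all 13465 tested genes. The same sums with library 1 kept gave 0 calls by edgeR among lysosome genes and among all genes, with 5 lysosome genes and 1288 genes at an unadjusted p under 0.05. Leaving out single libraries kept 30 of the 41 calls in every case.

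The whole of the lysosome genes held a like share of the RNA at each dose. Their transcripts summed to 9917 to 10415 TPM (transcript shares scaled to the same total in every library) in control, 9361 to 9965 TPM in 10 mM libraries 2 to 6 and 9837 to 10387 TPM at 16 mM, ranges that overlap, while 10 mM library 1 had 6986 TPM. In bulk RNA, fewer cells with a transcript and less of it per cell cannot be told apart. Levels differed widely between members: in control 13 had a mean of at least 100 FPKM, 67 lay between 10 and 100 FPKM, 27 between 1 and 10 FPKM, and 10 below 1 FPKM. The highest in control were the tetraspanin CD63, with 498 FPKM, NPC2, with 468 FPKM, and PSAP, the precursor of the saposin activators, with 345 FPKM.

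**Figure D2:**
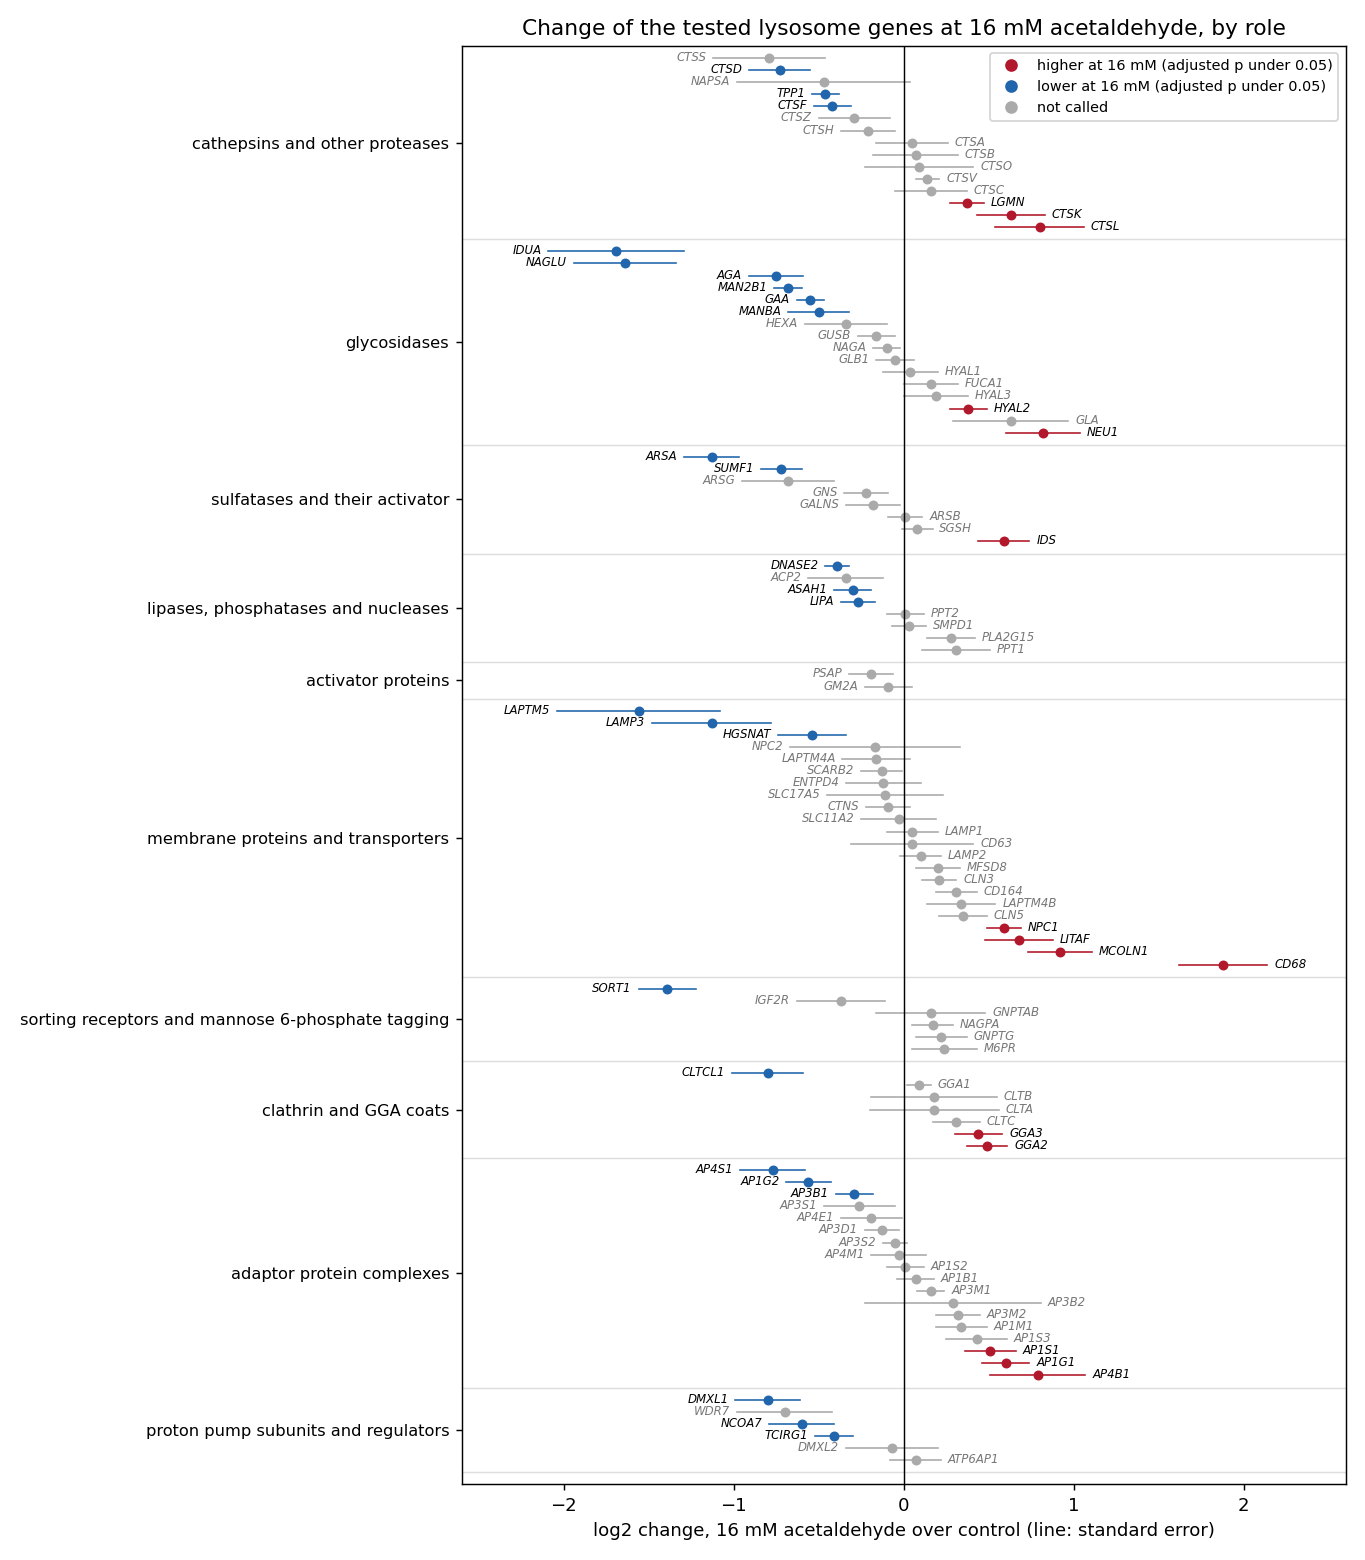
Log2 change at 16 mM acetaldehyde over control (edgeR, all 17 libraries) of 108 of the 110 tested lysosome genes, grouped by role; of the 2 not drawn, 1 was called higher. Points are estimates, lines 1 standard error to each side, red points were called higher (15), blue points lower (25) and grey points were not called (68). Called members of opposite sign stand in 6 of the 10 roles.

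Among the membrane proteins, CD68 had the largest rise of any lysosome gene. CD68 encodes a heavily glycosylated protein of the LAMP family that is abundant in macrophage lysosomes and lies on chromosome 17 at 7579638 to 7582111 (GRCh38.p13, deposited table). It had 9.81, 13.34, 12.76, 11.66 and 12.75 FPKM in the 16 mM libraries, against a lowest, median and highest of 2.65, 3.25 and 4.36 FPKM in control. At 10 mM it had 12.47 FPKM in library 1 and 7.75 to 9.80 FPKM in libraries 2 to 6. No exposed library overlapped the controls at either dose. The fold change was 3.68 at 16 mM (log2 change 1.88 ± 0.26, estimate ± SE, adjusted p = 2.92e-05) and 3.38 at 10 mM (1.76 ± 0.25, adjusted p = 0.000143), and without 10 mM library 1 the log2 change at 10 mM was 1.41. Macrophage and leukocyte markers summed to 0.700 to 1.67 FPKM at 16 mM, 1.03 to 1.61 FPKM at 10 mM and 0.520 to 1.00 FPKM in control. Of the 7 such markers in the table, CD14 alone reached 1 FPKM in any library (1.37 FPKM at most), and PTPRC, the pan-leukocyte phosphatase CD45, never exceeded 0.01 FPKM.

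MCOLN1 encodes mucolipin 1, the calcium channel through which lysosomes release calcium, and lies on chromosome 19 at 7522624 to 7534009. It had 18.31, 21.60, 18.50, 24.91 and 23.43 FPKM in the 16 mM libraries, against 10.10, 11.6 and 12.43 FPKM (lowest, median and highest) in control. All 16 mM libraries lay above all controls, by a log2 change of 0.92 ± 0.19 (adjusted p = 0.00109). At 10 mM, library 1 had 14.18 FPKM and libraries 2 to 6 had 11.76 to 14.11 FPKM, overlapping the controls, and the gene was not called.

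NPC1, the membrane transporter that exports cholesterol from lysosomes, had 51.40, 53.24, 53.74, 52.80 and 51.35 FPKM at 16 mM. Its control libraries had 32.53, 35.7 and 36.18 FPKM (lowest, median and highest), and 10 mM libraries 2 to 6 lay between at 40.22 to 43.64 FPKM. These 3 ranges did not overlap, although 10 mM library 1 had 31.65 FPKM. The log2 change was 0.59 ± 0.10 at 16 mM (adjusted p = 0.000186) and 0.34 ± 0.09 at 10 mM (adjusted p = 0.0184). Its soluble partner NPC2, grouped with it here, was not called at 16 mM, with 415 ± 86.6 FPKM (SD, n = 5) and, in control, 468 ± 92.1 FPKM (SD, n = 6), a log2 change of -0.17 ± 0.50. LITAF, which encodes a membrane protein of late endosomes and lysosomes, rose by 0.68 ± 0.20 (adjusted p = 0.012), with 38.0 ± 5.70 FPKM at 16 mM and 23.9 ± 2.20 FPKM in control.

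The structural glycoproteins of the lysosomal membrane were not called. LAMP1 averaged 134 ± 11.2 FPKM at 16 mM and 140 ± 12.6 FPKM in control (log2 change 0.05 ± 0.15, adjusted p = 0.848). LAMP2, which also serves in chaperone-mediated autophagy, averaged 45.3 ± 3.89 FPKM at 16 mM and 43.2 ± 1.80 FPKM in control (0.10 ± 0.12, adjusted p = 0.553). CD63 averaged 512 ± 96.7 FPKM at 16 mM, where libraries 1 to 3 had 441.03 to 442.78 FPKM and libraries 4 and 5 had 616.97 and 619.66 FPKM, and 498 ± 36.5 FPKM in control (0.05 ± 0.36). Their low relative LAMP3, a family member of restricted expression, fell by 1.13 on the log2 scale (SE 0.35, adjusted p = 0.0196), with 0.39 to 1.38 FPKM at 16 mM and 1.27 to 3.34 FPKM in control, ranges that overlap. LAPTM5, a lysosomal membrane protein known from blood cells, fell by 1.56 (SE 0.48, adjusted p = 0.0168), with 0.14 to 0.71 FPKM at 16 mM and 0.41 to 1.86 FPKM in control, again with overlap. The call of LAMP3 was lost without 16 mM library 4, without 16 mM library 5 or without control 2. Over the whole role, 4 of 22 tested membrane proteins were higher (CD68, MCOLN1, LITAF, NPC1) and 3 lower (LAPTM5, LAMP3, HGSNAT). That is 31.8% called, against 35.3% of all tested genes. With 10 mM library 1 left out, 8 were higher and 3 lower, against 33.7% and 32.2% of all tested genes.

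**Figure D3:**
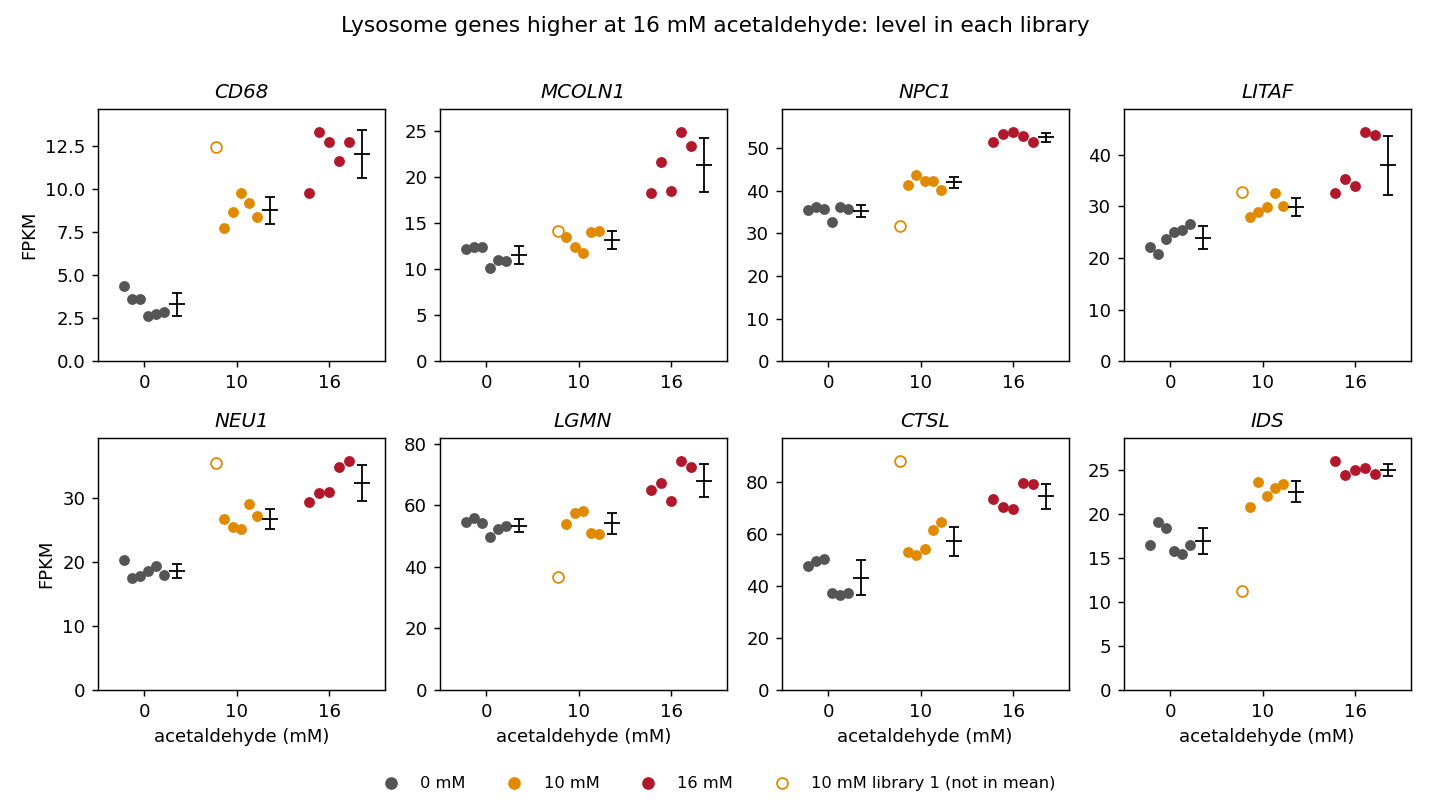
FPKM in every library of 8 lysosome genes called higher at 16 mM, by acetaldehyde dose (0, 10 and 16 mM), with libraries in the order of their numbers. Filled points are libraries, the open point is 10 mM library 1, and the bar beside each group is mean ± SD without that library. In all 8 genes the 16 mM libraries lie above every control, as for CD68 at 9.81 to 13.34 FPKM, above at most 4.36 FPKM.

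Among the acid hydrolases, more members fell than rose. Of 49 tested proteases, glycosidases, sulfatases, lipases, phosphatases and nucleases, 7 were higher and 14 lower at 16 mM, with a median log2 change of -0.16. Of all tested genes, 17.3% were higher and 18.1% lower. Without 10 mM library 1, 11 were higher and 22 lower, beside 33.7% and 32.2% of all tested genes.

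NAGLU, the alpha-N-acetylglucosaminidase of heparan sulfate breakdown whose loss causes Sanfilippo syndrome, had 4.35, 4.47, 4.13, 2.89 and 2.59 FPKM at 16 mM, against 9.92, 11.1 and 14.16 FPKM (lowest, median and highest) in control. At 10 mM it had 7.85 FPKM in library 1 and 3.85 to 5.32 FPKM in libraries 2 to 6. In FPKM, without TMM scaling, every exposed library lay below every control. The log2 change was -1.64 ± 0.30 at 16 mM (adjusted p = 0.000409), that is 0.322 times control. At 10 mM it was -0.90 ± 0.27 (adjusted p = 0.0303) with library 1 and -1.34 ± 0.12 (adjusted p = 2.12e-07) without it. With library 1 kept, the 10 mM call was lost without any one of 10 mM libraries 2 to 6 or controls 1 to 3.

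IDUA, the alpha-L-iduronidase that acts on heparan and dermatan sulfate and is missing in Hurler syndrome, had 0.74, 0.72, 0.93, 0.47 and 0.32 FPKM at 16 mM. Its controls had 1.19, 2.01 and 3.45 FPKM (lowest, median and highest), above all 16 mM libraries. The log2 change was -1.69 ± 0.40 at 16 mM (adjusted p = 0.00339). At 10 mM, where library 1 had 0.20 FPKM and libraries 2 to 6 had 0.48 to 1.99 FPKM with overlap, it was -1.11 ± 0.36 (adjusted p = 0.0435), and this call was lost without any one of controls 1 to 4, 10 mM libraries 4 to 6 or 16 mM libraries 1 to 4. IDUA was low everywhere and its gene overlaps SLC26A1, so reads of the pair may be mixed.

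ARSA, the sulfatase that degrades sulfatide in the myelin of the nervous system and whose loss causes metachromatic leukodystrophy, had 4.24, 4.24, 3.73, 2.89 and 2.81 FPKM at 16 mM, against 6.41, 7.33 and 9.10 FPKM in control. It had 2.99 to 5.55 FPKM in 10 mM libraries 2 to 6 and 3.04 FPKM in library 1. Exposed libraries of both doses lay below all controls, by -1.13 ± 0.16 at 16 mM (adjusted p = 4.37e-05) and -0.66 ± 0.15 at 10 mM (adjusted p = 0.00597). SUMF1, which encodes the enzyme that installs the catalytic formylglycine of all sulfatases, fell by 0.72 (SE 0.12, adjusted p = 0.000194), to 6.14 ± 0.376 FPKM at 16 mM, against 10.2 ± 1.05 FPKM in control. IDS, the iduronate 2-sulfatase of the same glycosaminoglycan pathway as IDUA, went the other way. It had 24.38 to 26.03 FPKM at 16 mM and 15.49 to 19.06 FPKM in control, without overlap, a log2 change of 0.59 ± 0.15 (adjusted p = 0.00598). Of the 8 tested genes of this role IDS was the 1 called higher, and ARSA and SUMF1 were the 2 called lower, 37.5% against 35.3% of all tested genes. Leaving out 10 mM library 1, 1 was higher and 5 were lower, 75.0% against 65.9%.

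Of 18 tested glycosidases, 3 were higher and 6 lower at 16 mM, with a median log2 change of -0.13. Of all tested genes, 17.3% were higher and 18.1% lower. Without 10 mM library 1, 4 glycosidases were higher and 8 lower, beside 33.7% and 32.2% of all tested genes. Among the 6 lower ones were some of glycoprotein and glycogen breakdown. MAN2B1, the lysosomal alpha-mannosidase, had 18.48, 19.04, 16.78, 18.91 and 18.46 FPKM at 16 mM, against 27.76, 29.1 and 32.71 FPKM in control. At 10 mM it had 13.63 FPKM in library 1 and 19.39 to 23.31 FPKM in libraries 2 to 6, also below all controls. Its log2 change was -0.68 ± 0.08 at 16 mM (adjusted p = 7.17e-06), -0.42 ± 0.08 at 10 mM (adjusted p = 0.00123) and -0.26 ± 0.08 for 16 mM against 10 mM (adjusted p = 0.0362). The call between doses was lost without any one of 16 mM libraries 1, 2, 3 or 5, 10 mM libraries 2 to 4 or control 6. Between 16 mM libraries 4 and 5 and 10 mM libraries 5 and 6 the change was -0.05. GAA, the acid alpha-glucosidase that digests glycogen and is missing in Pompe disease, averaged 37.5 ± 3.62 FPKM at 16 mM and 55.3 ± 4.39 FPKM in control, without overlap (-0.55 ± 0.08, adjusted p = 7.33e-05). AGA, the aspartylglucosaminidase that cleaves sugar from asparagine, averaged 5.30 ± 1.36 FPKM and, in control, 8.95 ± 1.59 FPKM (-0.75 ± 0.16, adjusted p = 0.00207). MANBA, the beta-mannosidase, was the other glycosidase called lower.

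NEU1 and HYAL2, a hyaluronidase, were among the glycosidases called higher. NEU1, the sialidase that removes terminal sialic acid, had 29.43, 30.80, 30.95, 34.85 and 35.80 FPKM at 16 mM, against 17.50, 18.2 and 20.29 FPKM in control. It had 25.15 to 29.11 FPKM in 10 mM libraries 2 to 6 and 35.40 FPKM in library 1, so that exposed and control libraries did not overlap at either dose. The log2 change was 0.82 ± 0.22 at 16 mM (adjusted p = 0.00742) and 0.84 ± 0.21 at 10 mM (adjusted p = 0.0107), and without library 1 the log2 change at 10 mM was 0.53. HEXA, which encodes the alpha subunit of hexosaminidase A, was not called. It averaged 20.4 ± 0.905 FPKM at 16 mM and 26.2 ± 3.85 FPKM in control (-0.34 ± 0.24, adjusted p = 0.295), and was called lower without 10 mM library 1 (-0.33, adjusted p = 0.000324).

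Several well-known storage disease genes were not called with all libraries. GLB1, the beta-galactosidase used as a marker of senescent cells, averaged 41.7 ± 1.32 FPKM at 16 mM and 43.4 ± 1.61 FPKM in control (-0.05 ± 0.11, adjusted p = 0.78). GLA, the alpha-galactosidase of Fabry disease, averaged 42.9 ± 7.15 FPKM and, in control, 27.8 ± 7.35 FPKM (0.63 ± 0.34, adjusted p = 0.162), and was called higher without 10 mM library 1 (0.64, adjusted p = 0.00678).

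**Figure D4:**
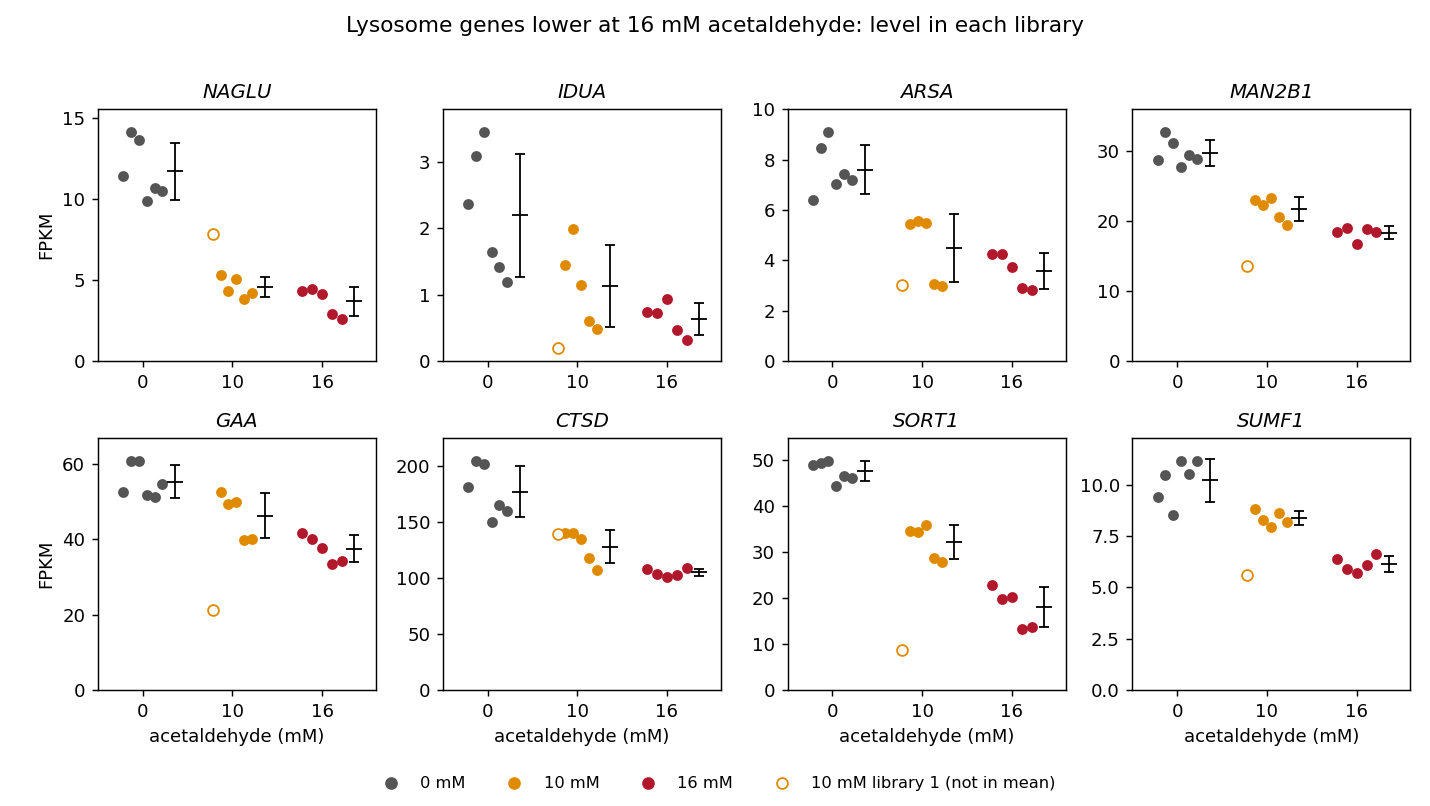
FPKM in every library of 8 lysosome genes called lower at 16 mM, by acetaldehyde dose (0, 10 and 16 mM), with libraries in the order of their numbers. Filled points are libraries, the open point is 10 mM library 1, and the bar beside each group is mean ± SD without that library. In all 8 genes the 16 mM libraries lie below every control, as for SORT1 at 13.16 to 22.90 FPKM, below at least 44.43 FPKM.

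The proteases divided between rises and falls. CTSD, the aspartic protease cathepsin D and the protease of highest level among those called, had 107.86, 103.59, 100.98, 102.93 and 108.80 FPKM at 16 mM, against 150.00, 173 and 204.45 FPKM in control. All 16 mM libraries were below all controls (-0.73 ± 0.18, adjusted p = 0.00396). At 10 mM it had 139.09 FPKM in library 1 and 107.16 to 140.09 FPKM in libraries 2 to 6. In FPKM these too lay below all controls, but CTSD was not called with library 1 in the fit. The fit applies TMM scaling, which raises library 1, and FPKM does not. TPP1, the serine protease of a childhood ceroid lipofuscinosis, fell by 0.46 (SE 0.08, adjusted p = 0.000226) at 16 mM and by 0.34 (SE 0.07, adjusted p = 0.0042) at 10 mM. CTSF, a cysteine cathepsin, fell by 0.42 (SE 0.11, adjusted p = 0.00791) at 16 mM.

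CTSL, the cysteine protease cathepsin L, had 73.57, 70.17, 69.58, 79.55 and 79.14 FPKM at 16 mM, against 36.67, 42.4 and 50.38 FPKM in control. At 10 mM it had 88.06 FPKM in library 1 and 52.04 to 64.52 FPKM in libraries 2 to 6, so the 3 doses stood in order once library 1 was set aside, with no overlap between neighbours. The log2 change was 0.80 ± 0.26 at 16 mM (adjusted p = 0.0228) and 0.81 ± 0.25 at 10 mM (adjusted p = 0.0313). The 16 mM call was lost without 16 mM library 4 or without 16 mM library 5, and the 10 mM call without any one of controls 1, 2, 4, 5 or 6. Without 10 mM library 1 the changes were 0.80 (adjusted p = 1.4e-06) and 0.41 (adjusted p = 0.00234). The 10 mM change was 0.12 between 10 mM libraries 2 to 4 and controls 1 to 3. It was 0.76 between 10 mM libraries 5 and 6 and controls 4 to 6.

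LGMN, the asparaginyl endopeptidase that processes cathepsins, rose by 0.37 (SE 0.10, adjusted p = 0.00561), with 61.33 to 74.51 FPKM at 16 mM and 49.89 to 56.07 FPKM in control. CTSK, the collagen-degrading cathepsin K, rose by 0.63 (SE 0.20, adjusted p = 0.0193), with 4.01 to 5.57 FPKM at 16 mM and 2.63 to 3.24 FPKM in control, a call lost without 16 mM library 4. Cathepsin B, encoded by CTSB, averaged 64.4 ± 7.07 FPKM at 16 mM and 61.9 ± 3.37 FPKM in control and was not called (0.07 ± 0.25, adjusted p = 0.851). Thus 3 of 15 tested proteases were higher and 3 lower, 40.0% called against 35.3% of all tested genes. The fit lacking 10 mM library 1 had 4 higher and 5 lower, 60.0% against 65.9%.

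No lipase, phosphatase or nuclease was called higher and 3 of 8 were lower, 37.5% against 18.1% of all tested genes called lower. In either direction 35.3% of all tested genes were called. Without 10 mM library 1, 2 were higher and 4 lower, 75.0% against 65.9%. DNASE2, the acid DNase, had 32.59 to 39.02 FPKM at 16 mM, 33.90 to 39.90 FPKM in 10 mM libraries 2 to 6 and 41.24 to 50.60 FPKM in control, and fell by 0.39 (SE 0.07, adjusted p = 0.000514) and, at 10 mM, by 0.31 (SE 0.07, adjusted p = 0.00459). ASAH1, the acid ceramidase, fell by 0.30 (SE 0.11, adjusted p = 0.0356) and LIPA, the acid lipase that frees cholesterol, by 0.27 (SE 0.10, adjusted p = 0.0392). Both of these calls were lost without any one of several libraries, namely each 16 mM library for both, controls 1 to 3 for ASAH1, and controls 1, 4, 5 and 6 for LIPA. The acid sphingomyelinase gene SMPD1 averaged 12.6 ± 0.490 FPKM at 16 mM and 12.5 ± 0.580 FPKM in control (0.03 ± 0.10, adjusted p = 0.844). Neither of the 2 tested activator genes was called at 16 mM with all libraries, and PSAP was called lower without 10 mM library 1 (-0.19, adjusted p = 0.0366). PSAP averaged 296 ± 19.5 FPKM at 16 mM and 345 ± 38.9 FPKM in control (-0.19 ± 0.13, adjusted p = 0.275), and GM2A, the activator of GM2 hydrolysis, averaged 13.1 ± 0.803 FPKM at 16 mM and 14.0 ± 2.50 FPKM in control (-0.09 ± 0.14, adjusted p = 0.652).

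In the route that delivers hydrolases, SORT1 stood out. It encodes sortilin, a receptor that carries several hydrolases and activators from the Golgi independently of mannose 6-phosphate, and lies on chromosome 1 at 109309575 to 109397940. It had 22.90, 19.86, 20.23, 13.16 and 13.76 FPKM at 16 mM, against 44.43, 47.7 and 49.82 FPKM in control. At 10 mM libraries 2 to 6 had 27.91 to 35.77 FPKM and library 1 had 8.65 FPKM. Leaving library 1 aside, the doses stood in order with no overlap between neighbours. The log2 change was -1.39 ± 0.17 at 16 mM (adjusted p = 9.85e-06), -0.69 ± 0.16 at 10 mM (adjusted p = 0.00634) and -0.71 ± 0.17 for 16 mM against 10 mM (adjusted p = 0.0118).

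The mannose 6-phosphate receptors were not called with all libraries. IGF2R averaged 32.2 ± 2.92 FPKM at 16 mM and 42.7 ± 6.27 FPKM in control (-0.37 ± 0.26, adjusted p = 0.284), and was called lower without 10 mM library 1 (-0.37, adjusted p = 0.00142). M6PR, the smaller cation-dependent receptor, averaged 98.0 ± 3.00 FPKM and, in control, 84.2 ± 7.42 FPKM (0.24 ± 0.19, adjusted p = 0.363), and was called higher without that library (0.25, adjusted p = 0.0022). GNPTAB, which encodes subunits of the phosphotransferase that starts the mannose 6-phosphate tag, had 10.81 to 14.54 FPKM at 16 mM and 10.30 to 12.53 FPKM in control (0.16 ± 0.32, adjusted p = 0.744). In 10 mM libraries 2 to 6 GNPTAB had 15.14 to 16.48 FPKM, above every control and every 16 mM library, while library 1 had 1.27 FPKM.

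Coat and adaptor genes moved in both directions. GGA2 and GGA3, adaptors that load mannose 6-phosphate receptors into clathrin coats at the Golgi, were higher at 16 mM, by 0.49 ± 0.12 (adjusted p = 0.00399) and 0.44 ± 0.14 (adjusted p = 0.023), and both had no overlap with control. GGA2 had 30.48 to 39.14 FPKM at 16 mM and 24.15 to 25.15 FPKM in control. The GGA3 call was lost without 16 mM library 4 or without 16 mM library 5. CLTC, the clathrin heavy chain, averaged 130 ± 8.81 FPKM at 16 mM and 107 ± 11.3 FPKM in control and was not called (0.31 ± 0.14, adjusted p = 0.0954). Its groups did not overlap, with 122.73 FPKM the lowest at 16 mM and 118.97 FPKM the highest in control, and without 10 mM library 1 it was called higher (0.31, adjusted p = 0.0188). Its minor relative CLTCL1 fell by 0.80 (SE 0.21, adjusted p = 0.00586), with 4.03 to 6.87 FPKM at 16 mM and 8.29 to 10.59 FPKM in control.

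Within the AP-1 adaptor, which works between Golgi and endosomes, the alternative large subunits went opposite ways. AP1G1, which encodes gamma 1, had 27.87, 29.17, 29.76, 32.78 and 32.22 FPKM at 16 mM, against 18.83, 19.8 and 22.67 FPKM in control (0.60 ± 0.14, adjusted p = 0.00268). AP1G2, which encodes gamma 2, had 14.67, 12.56, 15.35, 9.89 and 11.05 FPKM at 16 mM, against 17.44, 19.1 and 21.99 FPKM in control (-0.56 ± 0.13, adjusted p = 0.00338). Neither overlapped its controls. The small subunit gene AP1S1 had 61.73 to 66.75 FPKM at 16 mM and 38.47 to 53.83 FPKM in control, with changes of 0.51 ± 0.15 at 16 mM (adjusted p = 0.012) and 0.80 ± 0.14 at 10 mM (adjusted p = 0.00102).

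Subunits of AP-4, an adaptor that exports the autophagy protein ATG9A from the Golgi, also split. AP4B1 was higher (0.79 ± 0.28, adjusted p = 0.0375), with 12.33 to 16.93 FPKM at 16 mM and 6.43 to 9.67 FPKM in control. That call was lost without any one of 16 mM libraries 2, 4 or 5 or controls 1 to 3. AP4S1 was lower (-0.77 ± 0.19, adjusted p = 0.00412), with 2.03 to 3.15 FPKM at 16 mM and 4.36 to 5.23 FPKM in control. Over the adaptor complexes 3 of 18 tested genes were higher and 3 lower, with AP3B1 also among the lower ones. The 33.3% called lay near the 35.3% of all tested genes. The fit lacking 10 mM library 1 had 7 higher and 5 lower, 66.7% against 65.9%.

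Of the 6 subunits and regulators of the proton pump among these genes, 3 fell and 0 rose, with a median log2 change of -0.51. Of all tested genes 17.3% rose and 18.1% fell. Leaving out 10 mM library 1, 4 fell and 0 rose, 66.7% lower against 32.2% of all tested genes. In either direction 65.9% of all tested genes were then called. DMXL1, a partner of the rabconnectin complex that assembles the pump, had 5.21, 4.75, 5.43, 3.65 and 3.74 FPKM at 16 mM, against 7.10, 7.9 and 9.19 FPKM in control (-0.80 ± 0.19, adjusted p = 0.00321). NCOA7, a pump-interacting TLDc protein, fell by 0.60 (SE 0.19, adjusted p = 0.018) at 16 mM and by 0.77 (SE 0.18, adjusted p = 0.00601) at 10 mM, and lost the 16 mM call without 16 mM library 5. TCIRG1, the a3 subunit of the membrane sector, fell by 0.41 (SE 0.11, adjusted p = 0.00812). ATP6AP1, the gene of highest level in this role, was not called, with a mean of 146 FPKM at 16 mM and 139 FPKM in control. Transcripts of the role summed to 339 to 423 TPM at 16 mM and 383 to 450 TPM in control, ranges that overlap. The excluded genes of the same pathway entry, 8 of them ATP6V pump subunits, had 3 of 9 tested genes higher and 0 lower at 16 mM, with a median log2 change of 0.42, and 6 higher and 0 lower without 10 mM library 1. These shares, 33.3% and 66.7%, were all higher calls, and 17.3% and 33.7% of all tested genes were called higher. In either direction, 35.3% and 65.9% of all tested genes were called. ATP6V1H, the regulatory H subunit, averaged 51.2 ± 5.96 FPKM at 16 mM and 32.8 ± 3.11 FPKM in control (0.66 ± 0.12, adjusted p = 0.000378). ATP6V0D1, a d subunit of the membrane sector, averaged 81.3 ± 14.6 FPKM and, in control, 44.8 ± 5.40 FPKM (0.88 ± 0.27, adjusted p = 0.019), a call lost without 16 mM library 4 or without 16 mM library 5.

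At 10 mM, 12 of the 110 lysosome genes were higher and 10 lower than control, beside 18.7% of all tested genes (9.41% higher and 9.30% lower). Without library 1, 24 were higher and 25 lower (44.5%, beside 45.2%, of which 22.4% higher and 22.8% lower), including all 22 genes called with it, with the same sign. Counts changed when single libraries were left out: 12 lysosome genes were called without control 1, 14 without control 2 and 13 without control 3. These are 10.9%, 12.7% and 11.8%, beside 13.2%, 13.0% and 13.3% of all tested genes. With close libraries summed and library 1 left out, 2 were called (1.82%, beside 1.83% of all tested genes). Besides the genes above, CLN3, a membrane protein lost in juvenile Batten disease, was higher at 10 mM (0.44 ± 0.10, adjusted p = 0.00434), with 37.01 to 41.57 FPKM in libraries 2 to 6, 27.55 FPKM in library 1 and 28.49 to 30.21 FPKM in control. At 16 mM it had 32.28 to 37.00 FPKM.

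Between the doses, 2 of the 110 lysosome genes were higher and 10 lower at 16 mM than at 10 mM, which is 10.9%, beside 14.1% of all tested genes (6.69% higher and 7.46% lower). Without 10 mM library 1, 25 were higher and 27 lower (47.3%, beside 44.1%). With the close libraries summed, none was called with library 1 or without it by edgeR, and 2 and 18 lysosome genes had an unadjusted p under 0.05, beside 457 and 2606 of all genes. The 2 higher genes were GGA2 and AP3M2, a medium subunit of AP-3, and the 10 lower ones were AP1G2, AP4S1, CTSF, CTSH, GAA, GM2A, LIPA, MAN2B1, SORT1 and SUMF1. CTSH, an aminopeptidase of the cathepsin family, had 8.72 to 17.40 FPKM at 16 mM, 15.86 FPKM in 10 mM library 1 and 16.13 to 24.13 FPKM in 10 mM libraries 2 to 6 (-0.67 ± 0.16, adjusted p = 0.0132). GM2A had 12.14 to 14.10 FPKM at 16 mM, 18.57 to 21.02 FPKM in 10 mM libraries 2 to 6, 7.77 FPKM in library 1 and 10.96 to 16.51 FPKM in control. Its change was -0.49 ± 0.14 (adjusted p = 0.0306) for 16 mM against 10 mM. Of the 12 calls, 5 (AP4S1, CTSF, CTSH, SORT1 and SUMF1) held whichever single library was left out. The number called fell to 6 without 16 mM library 2, to 6 without 16 mM library 4 and to 5 without 16 mM library 5. It fell to 6 without 10 mM library 2, to 7 without 10 mM library 3, to 6 without 10 mM library 4 and to 7 without control 6. In these fits 4.55% to 6.36% of lysosome genes were called, beside 6.40% to 12.1% of all tested genes.

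Many lysosome genes carry a palindromic E-box, the CLEAR element, near their start, which is the binding site of TFEB and its relatives TFE3 and MITF. Promoters of 89 of the 117 genes were found in RefSeq (GRCh38.p14; 250 bases before to 50 after the gene start) and searched for 3 nested motifs, each equal to its own reverse complement and therefore read on both strands at once. The longest, TCACGTGA preceded by G and followed by C, stood in 5 of the 89 (5.62%), against 91 of the 10323 tested genes in that table (0.882%). TCACGTGA itself stood in 10 (11.2%, against 2.26%), and CACGTG in 21 (23.6%, against 12.7%). The 5 genes with the full palindrome are shown because MCOLN1, with the second largest rise, and GAA, which fell, share it. Capitals mark the palindrome in these 5′ to 3′ stretches on the gene's strand, all upstream of the start. GAA holds a second copy nearer the start, 33 bases before it, which is not shown.
MCOLN1, chr19:7522593-7522623, plus strand: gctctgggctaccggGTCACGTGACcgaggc
GAA, chr17:80101488-80101527, plus strand: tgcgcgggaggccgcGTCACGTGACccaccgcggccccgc
IGF2R, chr6:159969037-159969076, plus strand: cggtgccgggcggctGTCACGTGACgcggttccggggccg
GNPTG, chr16:1351902-1351930, plus strand: cttccggtccccgtgGTCACGTGACcgtc
GALNS, chr16:88857099-88857138, minus strand: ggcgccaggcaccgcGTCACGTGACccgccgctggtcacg

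Genes with the palindrome moved in both directions. Of those 5 genes 1 was higher (MCOLN1) and 1 lower (GAA) at 16 mM, while the fit lacking 10 mM library 1 had 2 higher and 3 lower. Of the 20 tested genes with CACGTG, 2 were higher and 4 lower, and of the 63 without it 10 were higher and 14 lower. With 10 mM library 1 left out, the counts were 6 and 6 with CACGTG and 17 and 19 without it. Over all tested genes 17.3% were higher and 18.1% lower, or 33.7% and 32.2% without that library. The median log2 change was 0.03 with CACGTG and -0.03 without it. A match is a description of these windows only.

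The factors themselves were not called at 16 mM with all libraries, and TFE3 was called higher without 10 mM library 1 (0.25 ± 0.06, adjusted p = 0.00181). TFEB averaged 5.89 ± 1.28 FPKM at 16 mM and 6.26 ± 0.637 FPKM in control. TFE3 averaged 27.2 ± 1.46 FPKM at 16 mM and 23.2 ± 0.813 FPKM in control, and MITF averaged 3.45 ± 0.825 FPKM at 16 mM and 4.08 ± 0.522 FPKM in control. Of the 20 tested genes in a list of this family and its regulators, 1 was higher (FLCN, the folliculin that helps keep TFEB phosphorylated) and 1 lower (PPP3CB, a catalytic subunit of calcineurin, the phosphatase that acts on TFEB), against 17.3% and 18.1% of all tested genes. Leaving out 10 mM library 1, 7 were higher and 4 lower, against 33.7% and 32.2%. FLCN averaged 28.5 ± 3.71 FPKM at 16 mM and 22.2 ± 4.27 FPKM in control (0.37 ± 0.12, adjusted p = 0.0285). Leaving out any one of 16 mM libraries 4 and 5 or controls 4 to 6 ended the call, and within controls 1 to 3 and 16 mM libraries 1 to 3 its change was -0.01. PPP3CB fell by 0.36 (SE 0.10, adjusted p = 0.0094).

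Of 25 tested genes that move and fuse lysosomes, 8 were higher and 1 lower at 16 mM (13 and 6 without 10 mM library 1), with a median log2 change of 0.16. Over all tested genes 17.3% were higher and 18.1% lower, or 33.7% and 32.2% without that library. RAB7A, the small GTPase of late endosomes, averaged 174 ± 24.9 FPKM at 16 mM and 100 ± 3.18 FPKM in control (0.82 ± 0.17, adjusted p = 0.00122). RILP, its effector that recruits dynein, averaged 4.85 ± 0.702 FPKM at 16 mM and 2.32 ± 0.572 FPKM in control (1.07 ± 0.15, adjusted p = 3.31e-05). Of the 6 subunits of the HOPS tethering complex 3 were higher, with VPS18 at 1.03 ± 0.15 (adjusted p = 6.71e-05), VPS33A at 0.56 ± 0.13 (adjusted p = 0.00366) and VPS39 at 0.54 ± 0.12 (adjusted p = 0.00223). The other HOPS subunits were not called, with VPS11 at -0.12 ± 0.24 (adjusted p = 0.731), VPS16 at 0.20 ± 0.09 (adjusted p = 0.109) and VPS41 at -0.24 ± 0.11 (adjusted p = 0.103). With 10 mM library 1 left out, VPS16 was called higher (0.21, adjusted p = 0.00213) and VPS41 lower (-0.24, adjusted p = 0.00196). SNAPIN, a subunit of the BORC complex, was the gene called lower (-0.93 ± 0.24, adjusted p = 0.00637).

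A list of genes that respond to lysosomal membrane damage was split, with 7 of 25 tested genes higher and 4 lower at 16 mM (11 and 6 without 10 mM library 1), against the same 17.3% and 18.1% of all tested genes (33.7% and 32.2%). Of the lipid repair route, PI4K2A and ATG2A were higher, and OSBPL9, a lipid transfer protein, was not called (-0.05 ± 0.07, adjusted p = 0.672). PI4K2A, the lipid kinase that starts that route, averaged 31.8 ± 1.08 FPKM at 16 mM and 19.1 ± 0.182 FPKM in control (0.75 ± 0.10, adjusted p = 3.41e-05), and ATG2A, a lipid transfer protein, averaged 14.7 ± 1.90 FPKM at 16 mM and 6.97 ± 1.12 FPKM in control (1.09 ± 0.21, adjusted p = 0.000569). TRIM16, a ubiquitin ligase that works with galectin 3 on damaged lysosomes, rose by 0.96 (SE 0.25, adjusted p = 0.00696). Of the ESCRT-III genes, which seal membranes, CHMP3 (-0.57 ± 0.12, adjusted p = 0.00119) and CHMP4A (-1.13 ± 0.36, adjusted p = 0.0223) were lower and IST1 (0.40 ± 0.12, adjusted p = 0.0197) was higher. The calls of CHMP4A and IST1 were each lost without 16 mM library 4 or without 16 mM library 5. CHMP2A, CHMP2B, CHMP4B and CHMP5, also of ESCRT-III, were not called with all libraries. In the fit lacking 10 mM library 1, CHMP2A was called lower (-0.71, adjusted p = 6.76e-07) and CHMP5 higher (0.47, adjusted p = 1.52e-06). LGALS3, which encodes galectin 3, averaged 89.3 ± 6.45 FPKM at 16 mM and 81.6 ± 4.04 FPKM in control (0.14 ± 0.41, adjusted p = 0.83).

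In the authors' deposited table, 31 lysosome genes were higher and 38 lower at 16 mM with a q-value under 0.05, beside 50.4% of all genes with a q-value. At 10 mM that table had 11 higher and 9 lower (beside 15.4%), and for 16 mM against 10 mM 0 higher and 9 lower (beside 9.52%). The labels and headers do not state strandedness. Reads of overlapping genes may therefore be mixed, which touches TPP1 (TAF10), AP1G2 (THTPA), CLN3 (APOBR) and AP4B1 (DCLRE1B) among the genes called.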

How the data were processed

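RNA-seq of 17 libraries was analysed from 1 table. Per the submitters' processing notes, HISAT, Bowtie2 2.3.4.3, RSEM 1.3.1, DESeq2 1.4.5 and GRCh38.p13 were used, with roles not stated. Per the file headers, the authors deposited an estimated count (13.1% of values are not whole), an FPKM and a TPM per gene and library, and a log2 fold change with a p-value and q-value from DESeq2 per comparison. FPKM and TPM are printed as deposited, without TMM scaling.

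Estimated counts were rounded and fitted with edgeR 4.0.16 (R 4.3.3): TMM factors, filterByExpr by dose, and 1 quasi-likelihood fit of the 17 libraries (14 residual degrees of freedom), tested on simulated data first. Calls needed a Benjamini-Hochberg adjusted p under 0.05 over all tested genes, and the SE is the absolute log2 change over the square root of F. Depth varied little between libraries. Estimates were imprecise for low genes (under 1 FPKM) and, with all libraries, also for some high genes such as NPC2 and CD63. Alternatives used limma 3.58.1, DESeq2 1.42.0, other filters, and libraries left out or summed.

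The lysosome genes, roles and other lists were chosen with earlier results of these data known. Genes named with full values were, per comparison, the 8 largest rises and 8 largest falls among called members whose higher group averaged 1 FPKM or more, up to 4 called members of each role with the smallest p at 16 mM (or 2 where none was called), and well-known anchor genes, 54 in all. Some genes that the rule names are not reported here, though counts over the lysosome genes include them. Genes of other lists were chosen after their values were seen.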

Additional observations from a re-analysis of the deposited data

Results flagged for a closer look

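Over 54 genes and 3 doses, 162 groups were screened with Dixon's criterion for a library far from the rest of its group, which chance alone meets in about 1 group in 20. There were 34 such values, and 29 of them were in 10 mM library 1.

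In that library CD63 had 1069.41 FPKM, NPC2 1520.17 FPKM, CTSB 83.11 FPKM, CTSL 88.06 FPKM, GLA 62.5 FPKM, HEXA 32.7 FPKM and NAGLU 7.85 FPKM, all above the other 10 mM libraries. Other genes lay below them in FPKM, which carries no TMM scaling. For AP1S1, among these, the 10 mM change in the TMM-scaled fit was higher with library 1 (0.80) than without it (0.68). Membrane genes below were CLN3 at 27.55 FPKM, LAMP2 at 16.05 FPKM and NPC1 at 31.65 FPKM. Sorting genes below were IGF2R at 4.38 FPKM, SORT1 at 8.65 FPKM and GNPTAB at 1.27 FPKM. Coat and adaptor genes below were AP1G1 at 9.5 FPKM, AP1S1 at 59.87 FPKM, CLTC at 62.65 FPKM, CLTCL1 at 1.97 FPKM, GGA2 at 10.88 FPKM and GGA3 at 6.74 FPKM. Also below were DMXL1 at 1.42 FPKM, NCOA7 at 3.53 FPKM, DNASE2 at 22.36 FPKM, GLB1 at 15.18 FPKM, GM2A at 7.77 FPKM, IDS at 11.23 FPKM, LGMN at 36.82 FPKM, LIPA at 24.08 FPKM, SUMF1 at 5.63 FPKM and TPP1 at 18.99 FPKM.

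The other 5 values were small departures. At 16 mM, AP1S1 had 61.73 FPKM in library 4 and 65.7 to 66.8 FPKM in the others, and M6PR had 103.3 FPKM in library 4 and 96.0 to 97.7 FPKM in the others. MAN2B1 had 16.78 FPKM in 16 mM library 3 and 18.5 to 19.0 FPKM in the others. TPP1 had 37.73 FPKM in 16 mM library 5 and 34.5 to 35.3 FPKM in the others. NPC1 had 32.53 FPKM in control 4 and 35.4 to 36.2 FPKM in the other controls.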

How the results depend on the processing

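Counts of calls depended on 10 mM library 1 and on how close libraries were treated. Pairs give lysosome genes and then all genes. At 16 mM against control (41 and 4439), fits gave 0 and 0 with close libraries summed, 80 and 9284 with the close-library set as a term without 10 mM library 1, 72 and 9201 with limma voom weights, 82 and 9063 in controls 1 to 3 with their set, 84 and 9776 in controls 4 to 6 with theirs, and 68 and 7979 with the 2 groups alone. At 10 mM against control (22 and 2351), the same settings gave 0 and 0, 68 and 7223, 71 and 7517, 78 and 8040, 72 and 7725, and 12 and 1530, and sums without library 1 gave 2 and 246. At 16 mM against 10 mM (12 and 1777), they gave 0 and 0, 70 and 7229, 72 and 7530, 67 and 6861, 78 and 8074, and 4 and 569, sums without library 1 gave 0 and 0, and DESeq2's Wald test gave 22 and 2671. For that comparison, limma on log2(FPKM + 0.1) gave 7 and 1200, and no filter on low counts gave 6 and 1441. Leaving out single libraries gave 31 to 69 and 3559 to 8271 at 16 mM, 12 to 49 and 1633 to 5670 at 10 mM, and 5 to 52 and 808 to 5537 between doses, each highest without 10 mM library 1. The cause was not tested.

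Same-numbered libraries had correlations of -0.39 to 0.414, so the numbers were not taken to pair samples. A replicate block gave 38, 18 and 9 lysosome genes for the 3 comparisons (4153, 1824 and 1304 genes), and without 10 mM library 1 the block gave 71, 51 and 58 (8506, 5653 and 5881 genes). The set difference correlated between doses across 12564 genes at 0.301 to 0.607. Of 3520 values of named genes, 2955 kept direction and side of the threshold, 484 lost the call, 75 gained one and 6 changed sign. These 6, at 16 mM, were CD63 (-0.28) and CTSB (-0.16) with voom weights, GM2A (0.18), LAMP1 (-0.11) and FLCN (-0.01) in the first set alone, and GNPTAB (-0.13) in the second. The set settings were chosen after seeing the data.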
